A study of Mus musculus with 620 samples.

Results

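Respiratory complex I was followed through 37 genes of its nuclear-encoded subunits, chosen by symbol alone: every entry of the count tables named Ndufa, Ndufb, Ndufc, Ndufs or Ndufv followed by a number. All 37 were found in the table of 24850 genes of the cohort labelled LT and in the tables of 40840 genes of the cohorts labelled ST and YA. All 37 passed the filter on low counts in every tissue, so no member was lost. The rule itself used no measured value, but members and gene lists were chosen with earlier results of these data known. It leaves out Ndufab1, the acyl carrier subunit, and the subunits encoded by mitochondrial DNA, which were not analysed here.

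The study sequenced poly(A)-selected RNA from 620 bulk tissue libraries of 72 mice in 11 conditions, under a title on aging and agonists of the glucagon-like peptide 1 receptor (GLP-1R). The LT cohort held aged mice given exenatide, a GLP-1R agonist (LT_A_Ex, 8 mice), aged controls (LT_A_ctrl, 9 mice) and young controls (LT_Y_ctrl, 8 mice) in 12 tissues, with 5 mice a group in circulating white blood cells, 6 young mice in colon and skeletal muscle, and 8 aged controls in frontal cortex and lung. The ST cohort covered 7 tissues with 5 mice a group, except 4 in white blood cells of the exenatide and the rapamycin groups: aged mice given exenatide (ST_A_Ex), aged mice given rapamycin, an inhibitor of the mTOR kinase (ST_A_rapa), aged mice given exenatide with knockdown of GLP-1R in the hypothalamus (ST_A_Ex_KD), aged knockdown controls (ST_A_ctrl_KD), aged controls (ST_A_ctrl) and young controls (ST_Y_ctrl). The YA cohort, whose deposited counts are named young, compared exenatide (YA_Ex) with controls (YA_ctrl), 8 mice each, in 8 tissues. In the LT and ST labels the letters A and Y were read as aged and young. Strain, sex, ages, doses, durations, vehicle and the knockdown construct are not given in the sources used here. No ST hypothalamus was analysed here, so the knockdown was not checked in the tissue it targets. Libraries held 15.2 to 33.8 M counts in LT (M, 1000000 counts), 14.6 to 56.2 M in ST and 14.98 to 34.1 M in YA. Libraries of a group are from separate mice, and libraries of different tissues can share a mouse.

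Complex I is the entry point of the mitochondrial respiratory chain. It oxidises NADH, passes the electrons along a chain of iron-sulfur clusters to ubiquinone and pumps protons across the inner membrane. The electron input (N) module binds NADH, the quinone-binding (Q) module hands the electrons to ubiquinone, and the proximal and distal parts of the membrane arm carry the proton pumps. The 7 core subunits among the 37, such as Ndufv1, Ndufs1 and Ndufs7, hold the flavin, the iron-sulfur clusters and the quinone site, and the others are accessory subunits that surround and stabilise them. Hippocampal neurons and heart muscle depend strongly on this pathway. Ndufa4 keeps its complex I symbol but is now also assigned to complex IV.

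Promoters were looked up because many of the members moved together. RefSeq promoter windows on GRCm38.p6, of 300 bases each from 250 before to 50 after the annotated start, were matched by symbol for 33 of the 37. The window held the letters AAGATGGC, the core of sites for the factor YY1, on either strand in 7 of these 33 (21.2%) against 778 of all 27025 windows (2.88%). Those 7 were Ndufa3, Ndufa9, Ndufb8, Ndufc1, Ndufs4, Ndufs6 and Ndufs7, and in each the match began 22 to 38 bases after the start. The letters contain ATG, and whether they act as YY1 sites in these genes was not tested. The ETS-family letters CCGGAAG were found in 4 windows (12.1%, against 9.12% of all), those of Ndufb6, Ndufb7, Ndufs3 and Ndufs8. The NRF1 palindrome was found in 1 window, that of Ndufa11 (3.03%, against 0.977%), and the ERR letters TCAAGGTCA in 0 (0%, against 0.407%). No window held more than 1 of these motifs. The 3 windows printed are given 5′ to 3′ on the gene's strand, with the YY1 letters in capitals: Ndufs6 (chr13:73328433-73328732, minus strand) and Ndufa3 (chr7:3617123-3617422, plus strand), accessory subunits with some of the widest differences in the hippocampus, and Ndufs7 (chr10:80249199-80249498, plus strand), a core subunit with a small one.
Ndufs6: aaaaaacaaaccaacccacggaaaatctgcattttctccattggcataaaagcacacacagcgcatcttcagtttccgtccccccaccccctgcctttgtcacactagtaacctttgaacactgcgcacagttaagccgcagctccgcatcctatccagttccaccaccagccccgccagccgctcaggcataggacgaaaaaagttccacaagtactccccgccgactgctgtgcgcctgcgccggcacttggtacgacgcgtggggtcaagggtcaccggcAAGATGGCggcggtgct
Ndufa3: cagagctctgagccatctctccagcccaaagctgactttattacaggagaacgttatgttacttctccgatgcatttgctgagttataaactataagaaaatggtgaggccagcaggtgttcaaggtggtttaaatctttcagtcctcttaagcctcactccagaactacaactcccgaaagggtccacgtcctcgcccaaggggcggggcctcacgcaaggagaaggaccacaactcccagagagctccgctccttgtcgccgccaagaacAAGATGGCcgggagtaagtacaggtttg
Ndufs7: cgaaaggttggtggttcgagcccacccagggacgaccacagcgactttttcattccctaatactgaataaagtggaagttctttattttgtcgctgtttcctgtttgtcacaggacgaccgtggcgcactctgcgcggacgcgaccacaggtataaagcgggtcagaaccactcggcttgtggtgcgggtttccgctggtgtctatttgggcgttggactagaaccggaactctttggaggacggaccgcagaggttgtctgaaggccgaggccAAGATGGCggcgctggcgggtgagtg

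Levels were read as log2 CPM, the counts of a gene per 1000000 counts of the library after scaling, and the mean of the 37 log2 values in a library is called the module mean. In LT young controls, scaled over all libraries of the cohort, the module mean was highest in heart (8.27 ± 0.51, SD, n = 8) and skeletal muscle (7.82 ± 0.30, n = 6), followed by liver (7.10 ± 0.47, n = 8), kidney (6.91 ± 0.11, n = 8), colon (5.83 ± 0.28, n = 6) and adipose tissue (5.83 ± 0.27, n = 8). Frontal cortex (5.46 ± 0.18), hippocampus (5.45 ± 0.18) and hypothalamus (5.21 ± 0.14) came next, and lung (4.65 ± 0.32), white blood cells (4.29 ± 0.03) and spleen (4.27 ± 0.13) were lowest. Neighbours in this order differed by less than the larger of their SDs between heart and skeletal muscle, liver and kidney, colon and adipose tissue, frontal cortex and hippocampus, and white blood cells and spleen. The 37 genes took 1.35% ± 0.31 of all counts in heart and 0.12% in spleen. Per kilobase of annotated transcript, Ndufa4 had the highest level of the members in hippocampus (222 CPM per kilobase) and Ndufb2 the lowest (11.01 CPM per kilobase).

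The members did not keep a fixed ratio across tissues. Relative to the module mean, Ndufb11 and Ndufc1 varied most over the tissues, with SDs of 0.47 and 0.46 over the 12 tissue means. The log2 CPM of Ndufb11, a distal membrane arm subunit, stood 1.22 above the module mean in white blood cells and 0.23 below it in hippocampus. Ndufc1, a small proximal membrane subunit, stood 0.26 above the module mean in skeletal muscle and was lowest relative to it in white blood cells (a difference of -1.40). Ndufs6, the zinc-binding subunit of the N module, was nearest to the module mean in liver (-0.46) and farthest below it in adipose tissue (-1.97). In bulk tissue, fewer cells of a type and less RNA per cell cannot be told apart, here and in each comparison that follows.

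A gene was called in a comparison when its Benjamini-Hochberg adjusted p in edgeR's quasi-likelihood test, over all genes tested in that tissue, was under 0.05. Counting each gene in each tissue, aged against young LT mice gave 14 members higher and 55 lower of 444, where 13.6% of all gene and tissue pairs were called. Exenatide-treated against control aged LT mice gave 24 higher and 14 lower of 444 (4.92% of all pairs called). In ST, aged against young mice gave 22 higher and 34 lower of 259 (13.6% of all pairs), exenatide 35 and 4 (8%), rapamycin 44 and 20 (13.2%), the knockdown alone 4 and 4 (3.27%), and exenatide under knockdown 35 and 0 (4.94%). The interaction of exenatide with knockdown called 0 of 259 by edgeR (2.41% of all pairs; 23 members had an unadjusted p under 0.05, and DESeq2 called 0). In YA, exenatide called 0 of 296 (0.631% of all pairs). These calls were not spread over tissues: ST hippocampus and white blood cells and LT adipose tissue, colon and heart held most of them, and members were higher in some and lower in others.

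**Figure D1:**
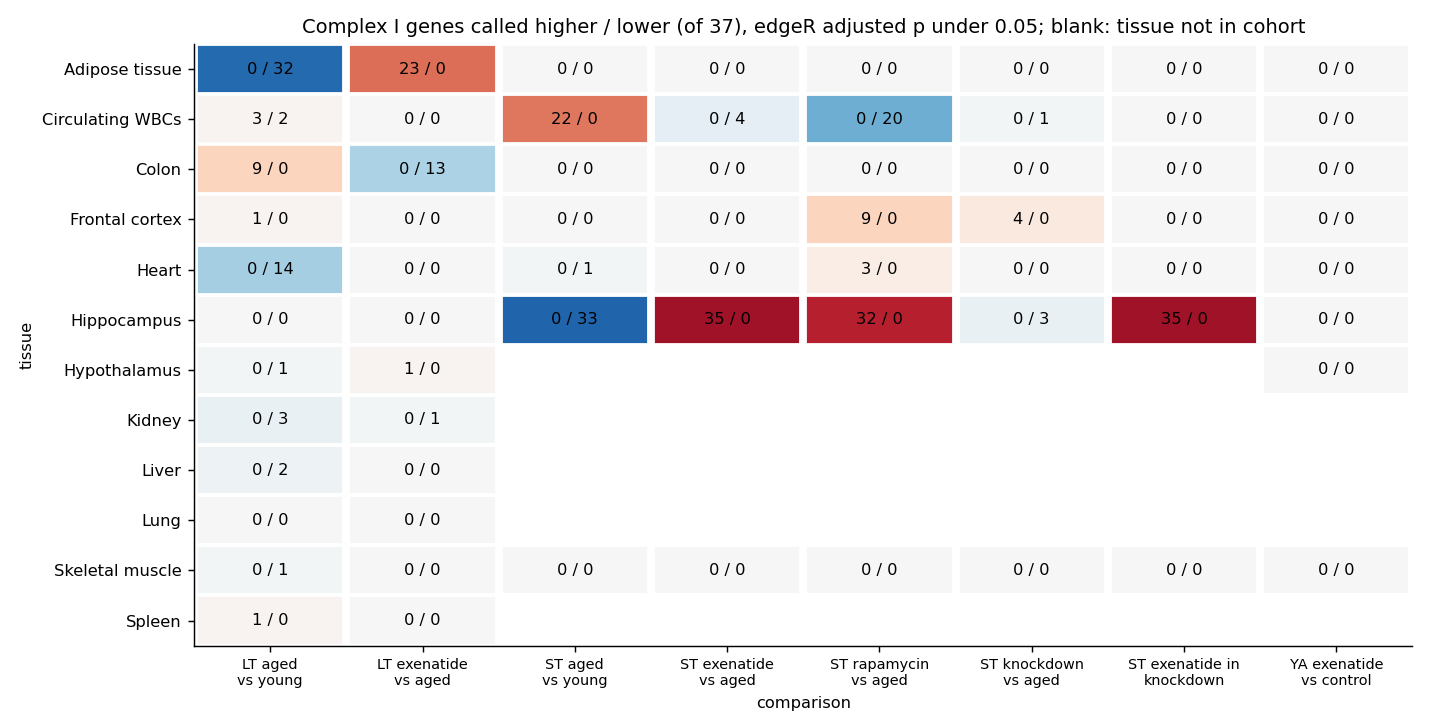
Number of the 37 complex I subunit genes called higher and lower at adjusted p under 0.05 for each comparison (across) and tissue (down); blank cells are tissues with no library in that cohort. ST hippocampus has 35 genes higher with exenatide and 33 lower in aged mice, while LT hippocampus has 0 in both comparisons.

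In the ST hippocampus, the complex I genes were lower in aged control mice than in young mice, and higher in aged mice given exenatide or rapamycin than in aged controls. With age 33 of 37 members fell and 0 rose, where 26% of all 18586 genes tested were called (11.9% higher, 14.1% lower). With exenatide 35 rose and 0 fell, where 28.6% were called (14.2% higher, 14.4% lower), and with rapamycin 32 rose and 0 fell, where 27.6% were called (14.1% higher, 13.5% lower). The median log2 fold change of the 37 was -0.52 with age, 0.59 with exenatide and 0.48 with rapamycin, beside medians over all genes of -0.002, 0.009 and 0. These comparisons share the 5 aged control libraries, so their opposite signs are given side by side and not as separate evidence.

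Module means in the hippocampus set the aged controls apart from the other 3 groups, which overlapped one another. They were 5.90 ± 0.05 with exenatide (5.85 to 5.95), 5.83 ± 0.05 with rapamycin (5.76 to 5.90), 5.30 ± 0.09 in aged controls (5.195 to 5.41) and 5.89 ± 0.04 in young controls (5.85 to 5.96), each SD with n = 5. Gene by gene, every aged control library lay below every young library for 33 members (9.45% of all genes did so), every exenatide library above every aged control for 31 (10% of all genes) and every rapamycin library above every aged control for 30 (9.09%). For the 7 core subunits alone the mean log2 CPM was 6.43 ± 0.04 with exenatide, 6.40 ± 0.04 with rapamycin, 6.25 ± 0.07 in aged controls and 6.42 ± 0.03 in young controls.

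**Figure D2:**
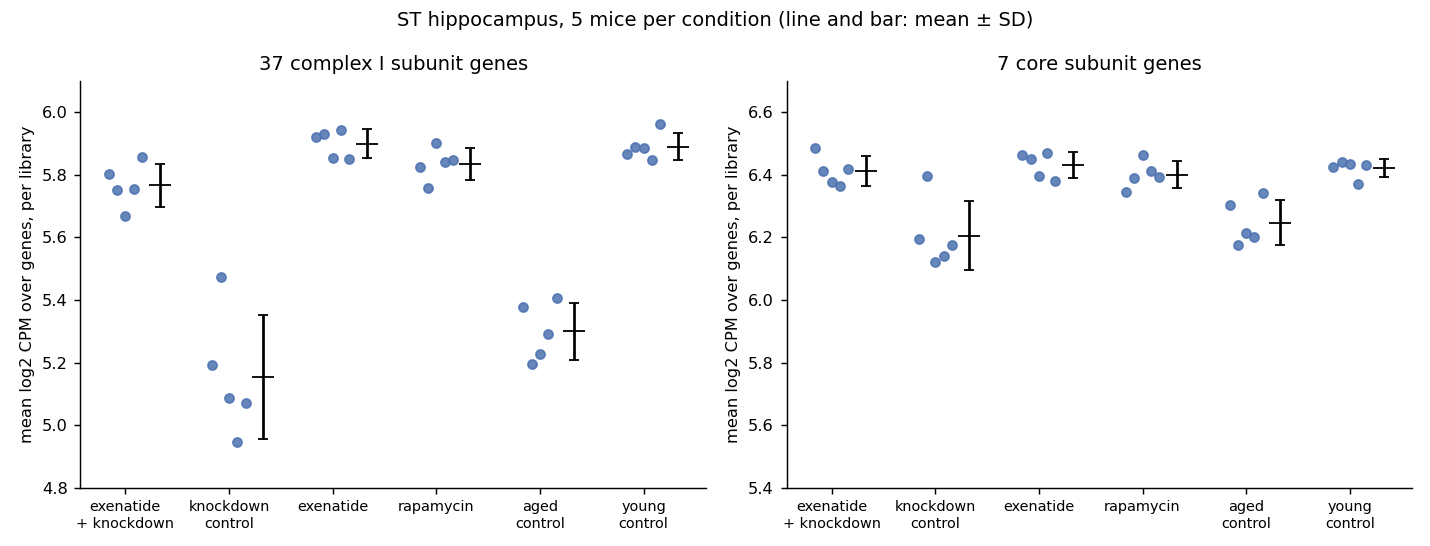
Module mean (log2 CPM) of the 37 complex I genes and of the 7 core subunits in each ST hippocampus library; points are mice, and lines with bars are the mean ± SD of 5 mice. Aged controls and knockdown controls sit below the 4 other groups for the 37 genes, and the gap is narrower for the core subunits.

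Among the N module genes, Ndufs6 showed one of the widest differences. Its level was 29.6, 30.7, 30.6, 29.96 and 28.3 CPM with exenatide, 29.8, 27.9, 32.4, 27.4 and 29.6 CPM with rapamycin, and 13.1, 10.6, 9.98, 12.3 and 16.97 CPM in aged controls, against 29.1, 32.3, 30.8, 30.2 and 33.7 CPM in young controls. All 5 aged controls lay below every library of the other 3 groups. Its log2 fold change was -1.31 ± 0.11 (SE) with age (adjusted p = 5.27e-10), 1.24 ± 0.11 with exenatide (1.35e-09) and 1.22 with rapamycin (9.39e-10). Ndufv3, a small subunit that sits against the flavin-binding part, averaged 43.9 ± 2.04 CPM with exenatide, 44 ± 1.25 CPM with rapamycin and 28.6 ± 1.71 CPM in aged controls, against 46.8 ± 2.02 CPM in young controls. Ndufa2, another accessory N subunit, differed by a log2 of -1.02 with age, 1.01 with exenatide and 0.95 with rapamycin. Ndufs4, a subunit mutated in Leigh syndrome in people, differed by -0.41, 0.36 and 0.31, all past the threshold.

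Ndufs1, a core N subunit that carries several iron-sulfur clusters, was at 116, 124, 125, 122 and 117 CPM with exenatide, 118, 129, 128, 130 and 117 CPM with rapamycin and 126, 121, 135, 126 and 132 CPM in aged controls, against 129, 126, 125, 121 and 128 CPM in young controls. The groups overlapped, and no comparison called it: the log2 fold change was 0.03 with age (adjusted p = 0.694), -0.09 ± 0.04 with exenatide (0.144) and -0.04 with rapamycin (0.507). Ndufv1, the flavin-binding subunit that accepts electrons from NADH, fell by 0.24 with age (0.0058) and rose by 0.21 with exenatide (0.0117) and 0.32 with rapamycin (0.000397). Ndufv2, a core subunit with an iron-sulfur cluster, fell by 0.19 with age and rose by 0.26 with exenatide and 0.20 with rapamycin. In all, 9 of the 10 N module genes were called in each of these 3 comparisons, with medians of -0.49, 0.53 and 0.50.

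The Q module had the smallest median differences of the modules. Of its 6 genes, 4 fell with age, 6 rose with exenatide and 3 rose with rapamycin, with median log2 fold changes of -0.21, 0.25 and 0.17. Ndufa5, an accessory subunit, stood apart from the other 5. It was at 70.7, 69.99, 67.4, 74.7 and 67.9 CPM with exenatide, 68.6, 66.1, 73.3, 68.6 and 72.8 CPM with rapamycin and 37.7, 31.8, 39.2, 35.7 and 39.6 CPM in aged controls, against 72.3, 74.3, 72.4, 69.6 and 71.8 CPM in young controls. No aged control reached any library of the other groups, and Ndufa5 had the smallest adjusted p of the members in all 3 comparisons (1.98e-11 with age, 8.34e-11 with exenatide, 2.75e-11 with rapamycin). Ndufs7, a core subunit at the quinone site, differed by -0.19 with age (adjusted p = 0.0745), 0.24 with exenatide (0.0254) and 0.16 with rapamycin (0.156). Ndufs8, a core subunit that carries iron-sulfur clusters, was at 45.4, 44.2, 42.1, 45.4 and 44.5 CPM with exenatide and 37.8, 35.6, 34.4, 36.1 and 39.9 CPM in aged controls, with no overlap. Its log2 fold change with exenatide was 0.27 (0.00155). Ndufs3, another core subunit, fell by 0.22 with age and rose by 0.26 with exenatide.

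In the membrane arm, 8 of 9 proximal genes and 11 of 11 distal genes were called with age, with exenatide and with rapamycin. The proximal medians were -0.71, 0.69 and 0.62 and the distal medians -0.55, 0.68 and 0.51. Ndufa3, a short proximal subunit, was at 59.1, 64.8, 59.1, 67.3 and 58.9 CPM with exenatide and 28.1, 23.7, 20.2, 28.5 and 27.4 CPM in aged controls, and at 59.7, 60.6, 61.6, 60.2 and 69.3 CPM in young controls. Aged controls did not overlap with the other groups, and its log2 fold change with exenatide was 1.28 ± 0.14 (adjusted p = 1.02e-07). Ndufa13, a membrane subunit first described in cell death, differed by -0.91 with age, 0.89 with exenatide and 0.79 with rapamycin. Ndufs5, on the intermembrane face, differed by -0.72, 0.81 and 0.74. The exception in the proximal group was Ndufa11, which was not called in any of the 3 (adjusted p 0.0578, 0.0766 and 0.105).

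In the distal arm, Ndufb1, a small accessory subunit, had the largest log2 fold change in response to exenatide of the 37. It was at 27.9, 32.8, 29.8, 30.9 and 30.2 CPM with exenatide and 11.6, 10.1, 14.1, 12.96 and 10.5 CPM in aged controls, and the lowest exenatide library was above the highest control. Its log2 fold change was 1.35 ± 0.15 (adjusted p = 7.19e-08). Ndufb3 differed by -1.01 with age, 1.05 with exenatide and 1.01 with rapamycin, and Ndufb6 by -0.89, 0.86 and 0.76. Ndufa4, outside the modules, averaged 128 ± 6.69 CPM with exenatide, 116 ± 4.16 CPM with rapamycin and 89.9 ± 3.35 CPM in aged controls, against 123 ± 9.22 CPM in young controls.

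**Figure D3:**
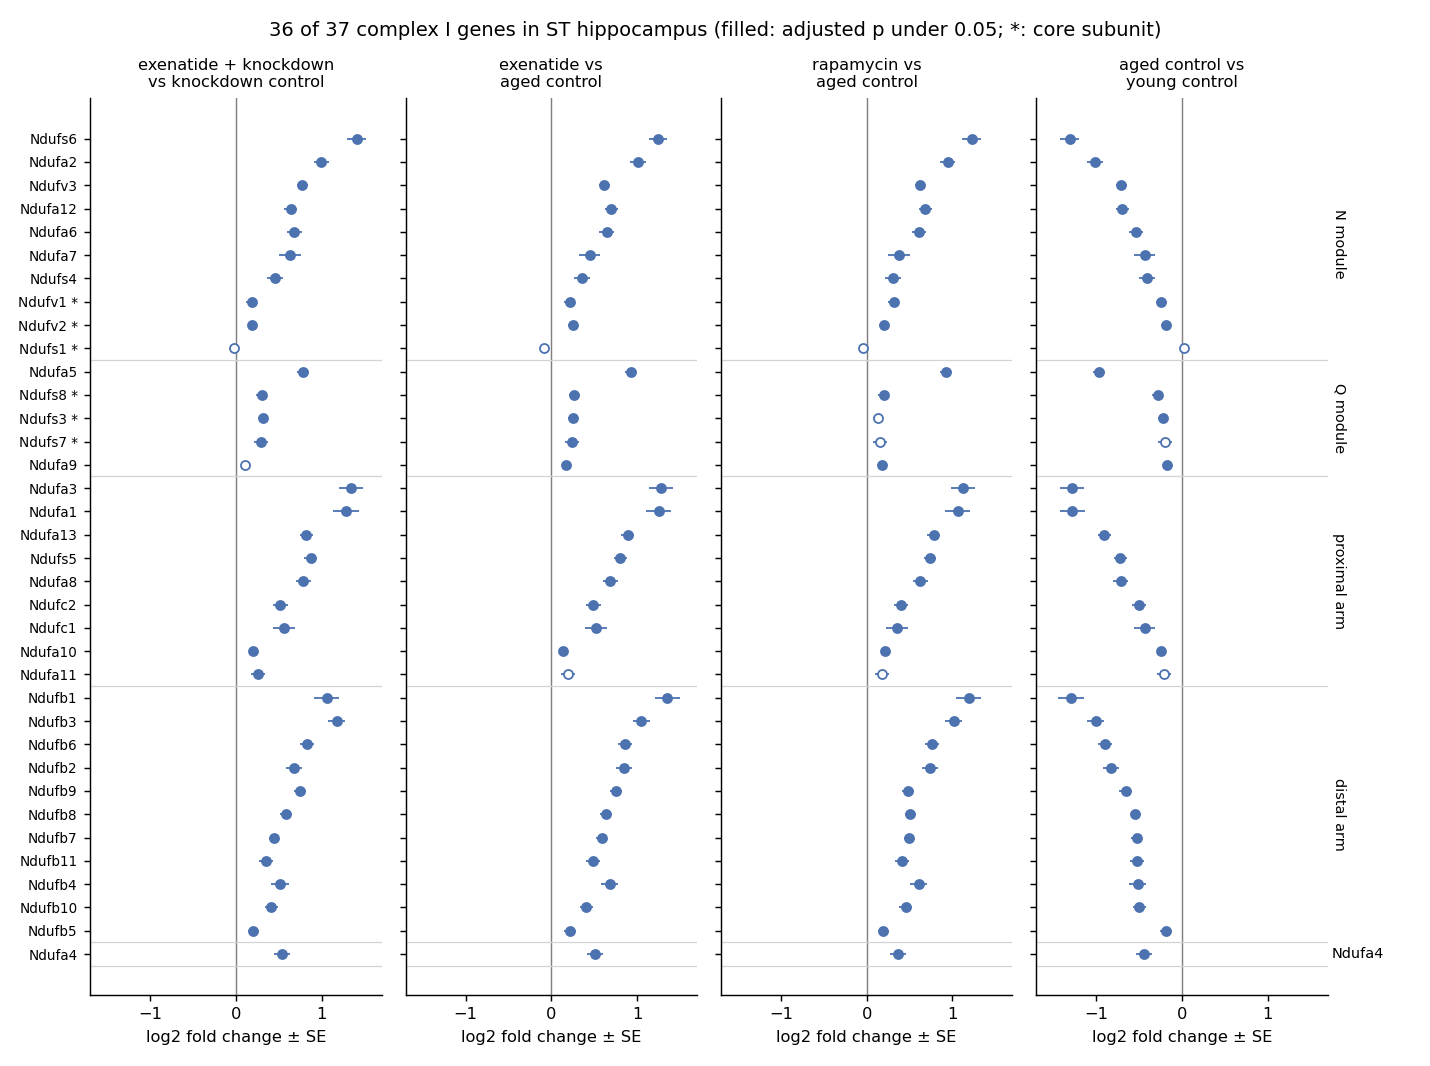
Log2 fold change ± SE of 36 of the 37 complex I genes in ST hippocampus, grouped by module, for exenatide under knockdown against knockdown controls, exenatide, rapamycin and age; filled points have adjusted p under 0.05 and asterisks mark core subunits. Ndufs1 stays near 0 in all 4 comparisons, while Ndufs6, Ndufa3 and Ndufb1 lie past 1 in size.

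Exenatide was also given to mice with hypothalamic GLP-1R knockdown. Against knockdown controls, 35 members rose in the hippocampus and 0 fell, where 31.3% of genes were called (16.1% higher, 15.1% lower), with a median log2 fold change of 0.57. The module mean was 5.77 ± 0.07 in exenatide-treated knockdown mice (5.67 to 5.86) and 5.15 ± 0.20 in knockdown controls (4.95 to 5.48), with no overlap. For 24 members every treated library lay above every knockdown control (9.44% of all genes did so). Ndufs6 was at 25.1, 22.5, 22.7, 26.9 and 29.7 CPM in treated knockdown mice and 9.84, 11.9, 8.78, 10.01 and 7.21 CPM in knockdown controls. These did not overlap, and the log2 fold change was 1.41 ± 0.11 (adjusted p = 2.63e-10). Ndufa5 was at 68.7, 60.6, 56.1, 67.1 and 72.2 CPM against 35.5, 44.3, 34.4, 40.1 and 34.5 CPM in knockdown controls, again with no overlap (log2 fold change 0.78, 9.41e-10). Ndufs1 (-0.02, 0.771) and Ndufa9 (0.10, 0.0729) were the 2 members not called.

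The exenatide comparisons with and without knockdown share no libraries. The same 34 genes rose in both, 97.1% of the 35 in each, whereas over all genes 1809 rose in both, 68.8% of the 2630 higher without knockdown and 60.4% of the 2996 higher with it. The difference between the 2 exenatide effects was tested itself, as an interaction: 0 members were called in the hippocampus (0 also had an unadjusted p under 0.05 and 0.043% of all genes were called). The smallest p was that of Ndufv3, whose effect was larger under knockdown by a log2 of 0.16 ± 0.09 (adjusted p = 0.542, edgeR's quasi-likelihood test). For Ndufs6 the difference was 0.17 ± 0.16 and for Ndufa5 -0.15 ± 0.10. A p past the threshold does not show that the effects were equal. The knockdown alone lowered 3 members in hippocampus against aged controls, where 4.98% of genes were called: Ndufs6 (-0.40, adjusted p = 0.0388), Ndufv3 (-0.29, 0.0108) and Ndufc2 (-0.28, 0.0475). None of these 3 calls held with a smooth trend in transcript length and GC content taken out of each library (1 other member was then called, higher, and the median was -0.02) or with only the compared groups in the fit (adjusted p of 0.39, 0.268 and 0.444).

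Several other features of the hippocampal libraries moved with the complex I genes. Of 76 ribosomal protein genes, 56 fell and 2 rose with age, 66 rose and 2 fell with exenatide, 73 rose and 1 fell with rapamycin, and 50 rose and 0 fell with exenatide under knockdown. Each library's length slope, the slope of gene-wise deviations from the tissue mean on log2 transcript length, was -0.083 to -0.049 with exenatide, -0.054 to -0.026 with rapamycin and 0.014 to 0.088 in aged controls, against -0.050 to -0.020 in young controls. It was -0.047 to -0.004 in exenatide-treated knockdown mice and 0.016 to 0.207 in knockdown controls. The aged control and knockdown control groups, with the lowest module means, had the highest slopes, that is relatively more counts on long transcripts. Among the 37 members the log2 fold change ran with annotated transcript length, with Spearman's rho of 0.46 with age, -0.48 with exenatide, -0.46 with rapamycin and -0.57 with exenatide under knockdown. These rho values describe 37 genes of the same libraries, which are not independent replicates. Depth was 30.1 to 56.2 M counts with exenatide, 23.8 to 51.95 M with rapamycin and 22.7 to 26.4 M in aged controls, against 24.4 to 48.4 M in young controls.

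With a smooth trend in transcript length and GC content taken out of each library, 25 members rose with exenatide, 25 with rapamycin and 25 with exenatide under knockdown, 27 fell with age, and 0 moved the other way. The medians were then 0.31, 0.21, 0.39 and -0.33. Core genes were among those that lost their calls: with exenatide Ndufs7 (-0.05) and Ndufs8 (-0.01) turned negative, and Ndufs3 (0.01) and Ndufv1 (0.03) were no longer called. Whether RNA quality or the ribosomal protein genes had a part in the differences was not tested.

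**Figure D4:**
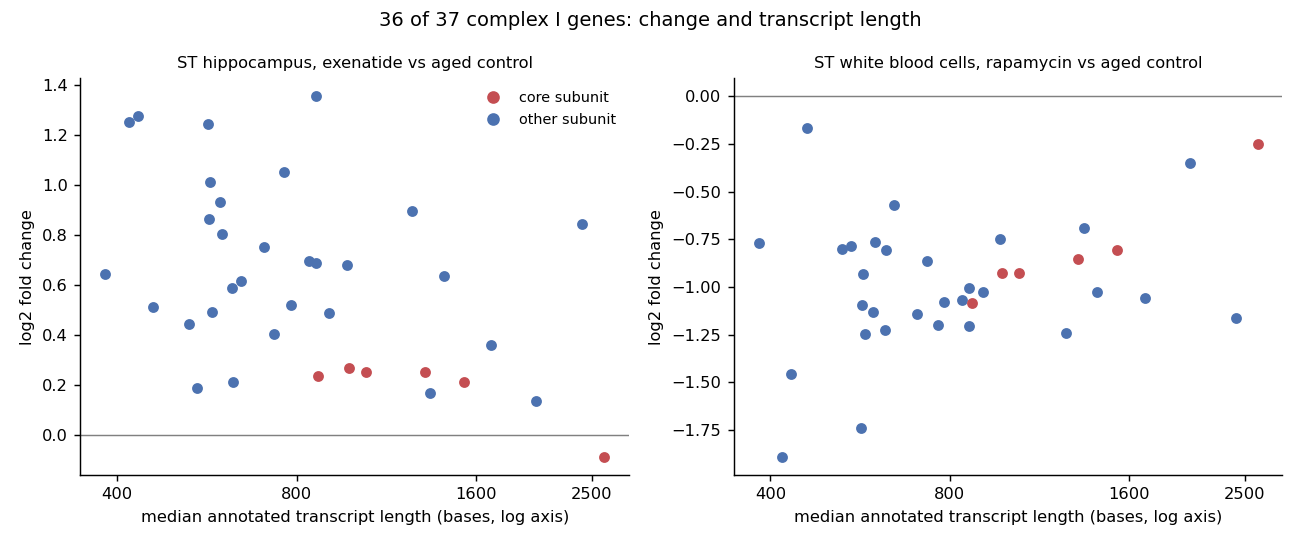
Log2 fold change of 36 of the 37 complex I genes against its median annotated transcript length (bases, log axis) for exenatide in ST hippocampus and for rapamycin in ST white blood cells, each against aged controls; core subunits are red. In hippocampus Ndufs1, with the longest transcript of the 37, lies just below 0, and Ndufa3 (433 bases) and Ndufs6 (568 bases) lie above 1.

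Cell type markers were read in the same libraries. The summed level of 8 neuronal markers was 11050 to 12030 CPM with exenatide, 11410 to 12180 CPM with rapamycin and 11240 to 12630 CPM in aged controls, against 11410 to 13220 CPM in young controls, so that all 4 groups overlapped. The 6 microglial markers summed to 358 to 422 CPM with exenatide, 305 to 370 CPM with rapamycin and 414 to 555 CPM in aged controls, against 312 to 337 CPM in young controls. Of these 6, 4 rose with age and 4 fell with rapamycin. The part of this difference in the complex I result was not tested.

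Other parts of the oxidative pathway were read from gene lists. Of 15 complex IV genes, 13 fell with age, 13 rose with exenatide and 13 rose with rapamycin, led by Cox5b (-1.27, 1.27 and 1.13). Of 15 measured ATP synthase genes, 12 fell with age, 12 rose with exenatide and 11 rose with rapamycin, led by Atp5k (-1.45, 1.33 and 1.35). Complex III had 5 of 9 lower with age and 6 higher with each drug, and complex II 3 of 4 lower with age, 2 higher with exenatide and 1 with rapamycin. Of 18 complex I assembly factors, 9 fell and 1 rose with age, and 8 rose and 1 fell with each drug: Ndufaf2, which helps to build the N module, differed by -0.67, 0.60 and 0.76. Ndufab1, the subunit outside the symbol rule, differed by -0.36, 0.40 and 0.29, all called. The citric acid cycle showed no such direction: of 13 enzymes, 3 rose and 2 fell with exenatide, Idh3b by 0.31 and Idh3a by -0.19. Of 13 regulators of mitochondrial biogenesis, 1 rose and 4 fell with exenatide, among them Yy1 (-0.29), Gabpa (-0.38) and Ppargc1a (-0.29).

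The same tissue gave no call in the other cohorts. In LT hippocampus the module mean was 5.48 ± 0.17 with exenatide (n = 8) and 5.58 ± 0.26 in aged controls (n = 9), against 5.67 ± 0.18 in young controls (n = 8), with 0 members called with age (0.403% of all genes were called) or with exenatide (0%). In YA hippocampus it was 6.62 ± 0.97 with exenatide and 6.78 ± 0.55 in controls (n = 8 each), with 0 members called and 0% of all genes. The exenatide mouse A88 stood at 4.30 there and the others of its group at 6.58 to 7.38. The cohorts were tested in separate fits, and a difference between cohorts was not tested.

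White blood cells of the ST cohort showed higher levels in aged controls and lower ones with rapamycin. In aged controls 22 members rose against young mice and 0 fell, where 23.6% of genes were called (12.6% higher, 11% lower). With rapamycin 20 members fell and 0 rose, where 12.8% were called (6.5% higher, 6.32% lower), and every rapamycin library lay below every aged control for 25 members (8.22% of all genes did so). With exenatide 4 fell, among them Ndufs7, Ndufs8 and Ndufc2, where 6.66% were called, and 1 fell with the length and GC trend taken out. The module mean was 3.83 ± 0.31 with exenatide (n = 4), 3.62 ± 0.16 with rapamycin (n = 4) and 4.52 ± 0.45 in aged controls (n = 5), against 3.67 ± 0.30 in young controls (n = 5). These comparisons share the 5 aged control libraries, whose module means ranged from 4.01 to 5.15. The opposite signs are given side by side and not as separate evidence.

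Core and accessory genes were both among those called. Ndufs7, the core subunit next to the quinone site, was at 14.3, 14.6, 9.14 and 17.3 CPM with exenatide, 16.3, 18.3, 18.9 and 15.3 CPM with rapamycin and 42.8, 54.8, 31.4, 29.6 and 22.95 CPM in aged controls, against 13.9, 13.7, 20.8, 14.5 and 13.6 CPM in young controls. Every aged control was above every other library of these groups. The log2 fold change was 1.26 ± 0.23 with age (adjusted p = 0.00102), -1.08 ± 0.25 with rapamycin (0.00809) and -1.39 ± 0.25 with exenatide (0.00599). With only the compared groups in the fit, none of the 4 genes kept its exenatide call, at -1.41 for Ndufs7. Ndufs6 was at 4.37, 4.91, 3.24 and 2.94 CPM with rapamycin and 13.5, 24.9, 6.99, 10.3 and 8.83 CPM in aged controls, with no overlap (-1.74 ± 0.42, 0.0116). Ndufa1, a membrane subunit encoded on the X chromosome, fell to 9.94, 8.71, 8.06 and 4.73 CPM with rapamycin, against 28.9, 36.5, 21.7, 38.2 and 20.3 CPM in aged controls (-1.89 ± 0.53, 0.0217). Ndufa2 differed most with age, at 41.6 ± 19.4 CPM in aged controls and 13.4 ± 4.82 CPM in young controls (1.66 ± 0.38, 0.00363). Ndufs1 was called in neither comparison (0.13, adjusted p = 0.495 with age and -0.25, 0.238 with rapamycin), nor was Ndufa4 (0.31, 0.593 and -0.17, 0.815).

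The makeup of these samples varied. Of 8 neutrophil markers 7 rose with age, and their summed level was 3115 to 4669 CPM with rapamycin and 2168 to 13320 CPM in aged controls, against 564 to 4586 CPM in young controls. Erythroid markers took 60730 to 199500 CPM with rapamycin and 100000 to 361700 CPM in aged controls, against 180700 to 629200 CPM in young controls. The length slopes were 0.043 to 0.130 with rapamycin and -0.302 to -0.013 in aged controls, against -0.015 to 0.126 in young controls. With the length and GC trend taken out, 13 members rose with age and 4 fell with rapamycin. The part of cell makeup in these results was not tested. The rapamycin count also rested on single mice: it was 2 without rapamycin mouse E6 and 27 without aged control E32. The age count was 13 without aged control E23.

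In the ST knockdown groups, 0 members were called in white blood cells with exenatide under knockdown (24 had an unadjusted p under 0.05 and 0% of all genes were called), at a median log2 fold change of -0.72. With the knockdown alone Ndufs7 fell against the same aged controls (-0.74, adjusted p = 0.0447), where 7.97% of genes were called. That call ended with the length and GC trend taken out (-0.40, 0.125), without the filter on low counts (0.0816) and with only the compared groups in the fit (0.356).

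In ST frontal cortex, rapamycin raised 9 members and lowered 0, where 18.2% of genes were called (7.81% higher, 10.4% lower). Ndufv1, the NADH-binding core subunit, was at 111, 115, 117, 102 and 115 CPM with rapamycin and 90.6, 91.1, 89.8, 83.9 and 95.96 CPM in aged controls, with no overlap (log2 fold change 0.31 ± 0.07, adjusted p = 0.00212). Ndufc2 was at 41.98, 41.8, 45.9, 42.6 and 42.9 CPM against 32.1, 32.8, 27.4, 31.8 and 36.9 CPM in aged controls, again apart (0.42 ± 0.12, 0.0137). Ndufa2 (0.61), Ndufa8 (0.34) and Ndufa11 (0.32) were also called, and Ndufb1 (0.01, 0.979) was the smallest. Of 75 ribosomal protein genes, 67 rose with rapamycin in this tissue and 0 fell. The count was 2 without aged control E13 and 15 without aged control E32. The knockdown alone raised 4 members in frontal cortex, Ndufv1 (0.27), Ndufa2 (0.71), Ndufa8 (0.39) and Ndufc2 (0.43), where 6.32% of genes were called, and 0 were called with the length and GC trend taken out. The rapamycin and knockdown comparisons share the aged control libraries, so their like signs are not separate evidence. Exenatide without knockdown and the interaction use these controls too. Exenatide called 0 members there without knockdown (median 0.17, 0.0274% of all genes called). Under knockdown it also called 0 (median -0.17, 0%). The interaction called 0 members and 0% of all genes, with 21 members at an unadjusted p under 0.05. All 37 interaction differences were negative, at a median of -0.34, or -0.20 with the length and GC trend taken out.

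In ST heart, rapamycin raised Ndufa1 (0.58, adjusted p = 0.0192), Ndufc1 (0.35, 0.0491) and Ndufv1 (0.39, 0.016), where 23.3% of genes were called, a larger share than among the 37 members. With only the compared groups in the fit none of the 3 was called (adjusted p of 0.0655, 0.147 and 0.125). Taking out the length and GC trend gave 5 members higher and 2 lower, and Ndufv1 was not called (0.09, 0.529).

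In LT adipose tissue, where white adipocytes store fat, 32 of 37 members fell with age and 0 rose, against a background in which 50.8% of 16846 genes were called (26.1% higher, 24.7% lower). With exenatide 23 rose and 0 fell, where 18.8% were called (10.2% higher, 8.68% lower). The module mean was 5.23 to 6.46 with exenatide (median 5.81, n = 8) and 5.03 to 5.72 in aged controls (median 5.26, n = 9), against 5.56 to 6.49 in young controls (median 5.93, n = 8). All 3 groups overlapped in range. The 2 comparisons share the aged controls. In ST adipose tissue 0 members were called with age, at a median of 0.022, where 0% of all genes were called. With exenatide 0 members were called there too, at a median of 0.105, again with 0% of all genes. A difference between the cohorts was not tested.

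Core genes were among those that moved in this tissue. Ndufs1 was at 91.03 to 181 CPM with exenatide (median 109) and 78.1 to 179 CPM in aged controls (median 107), against 77.3 to 210.1 CPM in young controls (median 156). It fell with age (-0.51 ± 0.17, adjusted p = 0.0166) and was not called with exenatide (0.20, 0.454). Ndufv1 rose with exenatide (0.60, 0.0407). Ndufb10, a distal arm subunit, had the smallest adjusted p in both comparisons: 50.3 to 115 CPM with exenatide (median 80.2), 33.4 to 74.5 CPM in aged controls (median 39.5) and 68.4 to 120 CPM in young controls (median 90.9), with log2 fold changes of 0.91 ± 0.16 (0.00113) and -1.04 ± 0.16 (4.41e-05). The ranges overlapped although the medians stood apart. Ndufa2 differed most with exenatide (1.12 ± 0.21, 0.00146) and Ndufa12, an accessory N subunit, most with age (-1.18 ± 0.19, 7.82e-05). Ndufb1 was not called in either comparison (0.10, 0.546 with age; -0.32, 0.0954 with exenatide).

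Cell type markers changed strongly in the same adipose libraries. Of 11 white adipocyte markers, 10 fell with age and 6 rose with exenatide. Their summed level was 16960 to 51290 CPM with exenatide (median 31410) and 7291 to 31290 CPM in aged controls (median 20330), against 25860 to 56070 CPM in young controls (median 42770). With age 10 of 11 macrophage, 8 of 8 B and plasma cell and 9 of 10 T and NK cell markers rose. With exenatide 5 of 5 measured erythroid markers rose. Their part in the complex I differences was not tested. Within sequencing batch 2 the mean was 5.73 with exenatide (n = 5) and 5.29 in aged controls (n = 5), against 5.98 in young controls (n = 5); within batch 3 it was 5.89 (n = 3) and 5.34 (n = 4), against 5.95 (n = 3). Batch 3 alone gave 0 members called in either comparison. The exenatide count was 14 without treated mouse B36. After removal of the length and GC trend 12 members rose and 1 fell with exenatide, at a median of 0.36, and 33 fell with age.

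In LT colon, 9 members rose with age and 0 fell, where 14.4% of genes were called (6.01% higher, 8.41% lower), and 13 fell with exenatide and 0 rose, where 12.1% were called (5.11% higher, 6.98% lower). Both comparisons share the aged controls, so their opposite signs are not separate evidence. The module mean was 5.68 to 6.001 with exenatide (mean 5.85 ± 0.11, n = 8) and 5.87 to 7.83 in aged controls (median 6.02, n = 9), against 5.54 to 6.20 in young controls (mean 5.88 ± 0.28, n = 6). The spread of the aged controls came from 2 mice, B24 at 7.83 and B27 at 6.87, whose length slopes were -0.45 and -0.26, and the other 7 lay between 5.87 and 6.31. Without both mice, an alternative chosen after seeing the data, 6 members rose and 4 fell with age, and 1 rose and 8 fell with exenatide.

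Ndufv3 had the smallest adjusted p of the colon members in both comparisons. It was at 33.2 to 51.6 CPM with exenatide (median 37.6) and 45.5 to 96.3 CPM in aged controls (median 57.8), against 25.98 to 51.5 CPM in young controls (median 34.1), so that the aged controls were mostly above the other groups with some overlap. Its log2 fold change was 0.81 ± 0.17 with age (adjusted p = 0.00503) and -0.71 ± 0.15 with exenatide (0.00689). Ndufa2 was at 19.8 to 48.8 CPM with exenatide (median 25.8) and 37.01 to 283 CPM in aged controls (median 56.5), against 17.6 to 35.1 CPM in young controls (median 25.01); every aged control was above every young mouse, the only member of which this held (0.801% of all genes did so). Of the core genes, only Ndufs7 was called, lower with exenatide (-0.70, 0.0393), and Ndufs1 was nearest to 0 (-0.07, 0.754). In batch 3 the mean was 5.97 with exenatide (n = 3) and 6.05 in aged controls (n = 4), against 6.07 in young controls (n = 2), and 0 members were called with exenatide. The age count was 3 without young mouse A52, and the exenatide count 7 without treated mouse B13. Taking out the length and GC trend left 3 members lower with exenatide and 0 higher, at a median of -0.29, and Ndufv3 was no longer called (-0.31, 0.097).

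**Figure D5:**
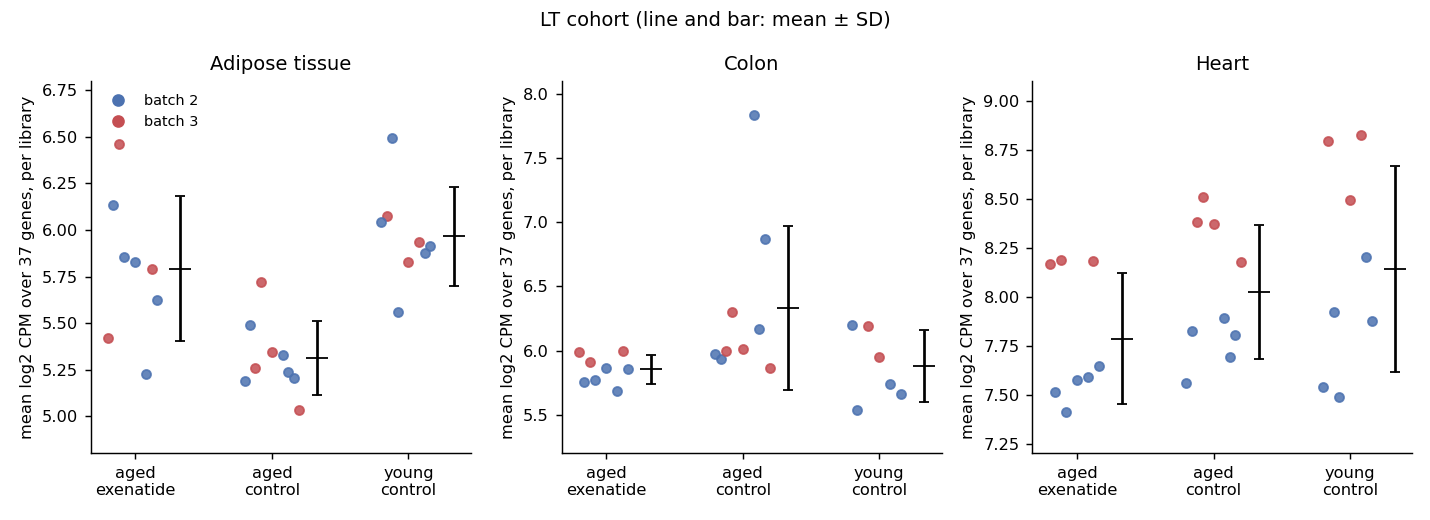
Module mean (log2 CPM) of the 37 complex I genes in each LT library of adipose tissue, colon and heart, coloured by sequencing batch. In colon 2 aged control mice stand above the rest at 7.83 and 6.87, and in heart the batches differ more than the conditions.

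In LT heart, 14 members fell with age and 0 rose, where 17.9% of genes were called (8.06% higher, 9.87% lower). The differences were small, with a median of -0.16. Ndufb1 was at 70.5 to 142 CPM in aged controls (median 76.4) and 95.7 to 185 CPM in young controls (median 137), with overlapping ranges (-0.59 ± 0.11, adjusted p = 0.00107). Ndufs4 was at 153 to 195 CPM in aged controls (median 162) and 187 to 249 CPM in young controls (median 219) (-0.37 ± 0.07, 0.000921), and Ndufb2 differed by -0.45 ± 0.09 (0.000811). Of the core genes Ndufs7, Ndufs8 and Ndufv1 fell, by 0.24, 0.22 and 0.20. The module mean was 7.75 in aged controls and 7.81 in young controls within batch 2 (n = 5 each), and 8.36 (n = 4) and 8.70 (n = 3) within batch 3. Without the batch term 3 members were called, and in batch 3 alone 0. With exenatide 0 were called (19 had an unadjusted p under 0.05 and 4.01% of all genes were called), at a median of -0.18.

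In LT white blood cells, single members differed with age in both directions: 3 rose and 2 fell, where 27.7% of genes were called (15.7% higher, 12% lower). The share called was thus smaller among the 37 members than over all genes. Ndufs4 was at 24.5, 33.04, 49.9, 49.3 and 38.6 CPM in aged controls and 20.2, 22.9, 16.1, 18.5 and 16 CPM in young controls, with no overlap (1.06 ± 0.21, adjusted p = 0.00488). Ndufb1 was at 23.5, 21.9, 25.4, 29.5 and 29.1 CPM in aged controls and 11.2, 17.8, 11.7, 12.5 and 12.3 CPM in young controls, also apart (0.98 ± 0.21, 0.00645). Ndufa4 rose too (0.66 ± 0.18, 0.0138). Ndufc2 was at 11.7, 7.98, 8.46, 8.65 and 8.23 CPM in aged controls and 14.96, 13.7, 12.6, 13.8 and 13.9 CPM in young controls, with no overlap (-0.61 ± 0.20, 0.0315), and Ndufv1 fell as well (-0.44 ± 0.15, 0.0389). All 6 platelet markers rose in the same comparison and 5 B and plasma cell markers fell. Their part was not tested. With exenatide 0 members were called (23 had an unadjusted p under 0.05 and 0.875% of all genes were called). Of the 37 log2 fold changes 34 were positive, at a median of 0.32. In ST white blood cells the exenatide median was -0.74, and a difference between the cohorts was not tested.

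In the other LT tissues at most 3 members were called in a comparison. In liver, Ndufa9 (-0.40, adjusted p = 0.0396) and Ndufv1 (-0.54, 0.0341) fell with age, where 4.5% of genes were called, although 36 members had an unadjusted p under 0.05 and the median was -0.53. The liver module mean was 5.85 ± 0.27 in aged controls (n = 9, median 5.90, highest 6.29). In young controls it was 6.31 ± 0.49 (n = 8, median 6.19), and the highest library stood at 7.35. With the length and GC trend taken out, 15 members fell and 0 rose with age in liver (median -0.36), and also in kidney (median -0.24). In kidney, Ndufb5 and Ndufs8 fell with age (-0.24 each), where 7.45% were called, and Ndufs1 fell with exenatide (-0.23), where 14.2% were called. Ndufb1, whose level varied between tissues and mice, rose with age in frontal cortex (0.33), where 5.74% of genes were called, and fell in hypothalamus (-0.74, where 7.09% were called) and skeletal muscle (-1.01, where 11.7% were called). It rose with exenatide in hypothalamus against the same aged controls (0.72, 0.0385), where 6.2% were called. Ndufs6 rose with age in spleen (0.58, 0.0233), where 11.2% were called. Removal of the length and GC trend ended the calls of Ndufs6 in spleen (0.33, adjusted p = 0.172), of Ndufb1 in hypothalamus with exenatide (0.82, 0.0927) and in frontal cortex (0.36, 0.0581), and of Ndufs8 (-0.16, 0.0559) and Ndufs1 (-0.115, 0.276) in kidney. Without the batch term the age calls of Ndufb1 in frontal cortex (0.0636) and skeletal muscle (0.0621), of Ndufb5 (0.0867) and Ndufs8 (0.0538) in kidney and of Ndufs6 in spleen (0.0555) ended, as did that of Ndufb1 in hypothalamus with exenatide (0.0595).

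In the YA cohort, exenatide called 0 of 296 gene and tissue pairs by edgeR (39 had an unadjusted p under 0.05, and DESeq2 called 6). The module mean in adipose tissue was 5.51 ± 0.48 with exenatide (median 5.62) and 5.15 ± 0.995 in controls (median 5.404, n = 8 each), where control A81 stood at 2.72 and the other controls at 5.34 to 5.79. In white blood cells it was 3.62 ± 0.22 with exenatide and 3.84 ± 0.38 in controls (n = 8 each). The groups overlapped in all 8 tissues. In frontal cortex 22 members had an unadjusted p under 0.05 at a median of 0.13, with 0% of all genes called.

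Some counts could include reads of neighbouring genes. Exons of 14 of the 37 members overlap another protein-coding gene in the annotation, among them Ndufa13, which shares 375 bases with Tssk6, Ndufb6, which shares 257 bases with Smim27, and Ndufs6, which shares 30 bases with Mrpl36. These named pairs lie on opposite strands, and the library kit does not keep the strand, so reads from their overlaps cannot be told apart. Ndufb2, Ndufb8 and Ndufb9 also overlap a protein-coding gene on the same strand.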

How the data were processed

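Poly(A) RNA from 620 libraries was analysed in 3 cohorts. The authors deposited whole-number counts per gene for the LT cohort and estimated counts for ST and YA, which were rounded to whole numbers here. Per the submitters' processing notes, FastQC 0.11.9 and the build GRCm39 were used; aligner, counter and annotation are not given in the sources used here. Libraries held 14.6 to 56.2 M counts (M, 1000000 counts). In each tissue and cohort all genes were fitted with edgeR 4.0.16 in R 4.3.3 (TMM scaling, filterByExpr, robust quasi-likelihood test, limma 3.58.1), with the sequencing batch of the labels as a term where an LT tissue had 2 batches. P-values were adjusted by Benjamini-Hochberg within tissue and comparison. Log2 CPM used a prior count of 2.

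Named members are those called where 1 to 4 were called, otherwise up to 6 with the smallest adjusted p and the extremes of log2 fold change, plus the core subunits; a few more were named after their values were seen, and the values of 1 member are not reported here. Members and gene lists were chosen with earlier results of these data known. Transcript lengths and GC content came from GENCODE M21 by symbol, for at least 89.7% of tested genes and all 37 members. Alternatives were DESeq2 1.42.0, its size factors, no filter, fewer conditions, batches apart, each mouse left out (177 refits), removal of a length and GC trend (splines of 4 degrees of freedom), without Ndufa4, and, chosen after seeing the data, LT colon without 2 aged controls. The fit was tested on simulated data.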

Additional observations from a re-analysis of the deposited data

Results flagged for a closer look

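In 9 of 94 groups, 1 library's module mean lay far outside the others of its group; chance gives about 1 in 20 groups. The low ones were ST_A_Ex adipose tissue mouse E19 (4.57, others 6.04 to 6.55), YA_ctrl adipose tissue A81 (2.72, others 5.34 to 5.79), ST_A_Ex_KD colon E15 (3.53, others 5.595 to 5.97), YA_Ex hippocampus A88 (4.30, others 6.58 to 7.38) and ST_A_ctrl skeletal muscle E13 (4.41, others 6.81 to 7.19). Their length slopes were 0.40, 0.64, 0.42, 0.87 and 0.58. The high ones were ST_A_rapa colon E28 (6.78, others 5.48 to 5.79), YA_ctrl heart A41 (8.34, others 7.62 to 7.77), LT_A_Ex skeletal muscle B13 (8.02, others 6.89 to 7.203) and LT_Y_ctrl skeletal muscle A54 (7.59, others 6.89 to 7.03). Their length slopes were -0.22, -0.16, -0.32 and -0.10. A54 was the only batch 3 library of its group and the others were from batch 1, so mouse and batch cannot be told apart there. The part of transcript length in these values was not tested.

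With rapamycin the module mean differed by 0.53 in ST hippocampus, where every treated library lay above every aged control, and by -0.90 in ST white blood cells, where every treated library lay below. The gap between these effects was 1.44 on the log2 scale. The difference between the tissues was not tested.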

How the results depend on the processing

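Counts of members called in ST hippocampus with age, exenatide, rapamycin and exenatide under knockdown stayed within 1.5 times under every alternative run, and with 1 mouse left out they were 31 to 34 with age, 32 to 35 with exenatide, 30 to 36 with exenatide under knockdown and 27 to 32 with rapamycin. With the length and GC trend removed, Ndufs7 and Ndufs8 turned to -0.051 and -0.011 with exenatide and -0.048 and -0.011 under knockdown, Ndufv1 to -0.029 under knockdown, and Ndufs8 to -0.015 with rapamycin. The same removal left 21 calls over LT tissues with exenatide, 42 over ST with rapamycin, 1 with the knockdown, 1 for the interaction and 3 in YA; the knockdown alone in ST hippocampus went to 1 higher and 0 lower, against 0 and 3 without the removal, and LT liver and kidney with age to 15 lower each, against 2 and 3; by tissue it left 13 for LT adipose exenatide (12 higher, 1 lower), 9 for LT white blood cells with age, 3 for LT colon exenatide, and 13 with age and 4 with rapamycin in ST white blood cells. DESeq2 gave 69 calls for LT exenatide, 13 for the knockdown, 6 for YA and 14 for LT colon age. Without the filter the knockdown had 3 calls and rapamycin in ST white blood cells 13.

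With only the compared conditions fitted, LT exenatide had 54 calls (23 higher, 31 lower), LT white blood cells with age 7 (3 higher, 4 lower), LT colon age 2, LT heart age 9 and ST frontal cortex rapamycin 20. Batch 3 alone gave 16 calls with age and 12 with exenatide over LT tissues: 0 and 0 in adipose tissue, 4 (1 higher, 3 lower) and 0 in colon, and 0 with age in heart. Batches 1 and 2 alone gave 13 for adipose exenatide, 2 for colon age and 8 for heart age, and without the batch term heart age had 3. The median over members in place of the mean turned the age difference of LT white blood cells to 0.008. The causes were not tested.

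With 1 mouse left out, counts were 30 to 33 (age) and 14 to 28 (exenatide) in LT adipose tissue, 3 to 12 and 7 to 18 in LT colon, 9 to 16 in LT heart, 3 to 6 in LT white blood cells, 13 to 24 (age) and 2 to 27 (rapamycin) in ST white blood cells, and 2 to 15 in ST frontal cortex. No paired analysis was possible because each mouse belongs to 1 condition and the groups share no replicate numbers.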
